A study of Mus musculus with 35 samples.

Results

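The late change of tracheal allografts was described by comparing 5 arrays of grafts taken 25 days after transplantation with 5 arrays of grafts taken at day 14. Both groups were mouse tracheas placed into MHC-incompatible recipients at a heterotopic site, that is, outside the airway. All non-control probe sets with a log2 intensity of at least 5 on at least 5 of these 10 arrays were compared, which kept 11884 of 22626 probe sets and 7302 of 12393 genes. The whole series holds 35 arrays of tracheal tissue RNA in 7 groups of 5: untransplanted (native) trachea, grafts into MHC-compatible recipients (isografts) at days 4, 14 and 25, and allografts at the same days. The strains, ages and sex of donors and recipients and the implantation site are not given in the sources used here. Nothing in the labels says whether the 5 arrays of a group came from separate animals, so p-values measure only the spread between arrays, which may be technical.

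The heterotopic tracheal allograft is used as a model of the airway obliteration that follows lung transplantation. In this model the recipient's T cells attack the donor epithelium, leukocytes fill the airway wall, and the lumen is later closed by fibroblasts and collagen. The trachea itself is built of surface epithelium and glands, C-shaped rings of hyaline cartilage, smooth muscle, and connective tissue with vessels and nerves. Values below are log2 intensities, so a difference of 1 is a 2-fold difference. In whole tissue, fewer cells of a type and less RNA per cell cannot be told apart. A fold against a group near the bottom of the scale depends on the authors' background correction.

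Markers of the labelled tissue were only partly present. Col2a1 and Acan, the collagen and proteoglycan of hyaline cartilage, were at 7.97 or more and 6.56 or more on the 10 arrays, and Acta2, smooth muscle actin, at 9.08 or more. The defining genes of airway epithelium were low. Scgb1a1, the secretoglobin of club cells, averaged 6.76 (SD 1.66, n = 5) at day 14 and 4.02 (SD 0.28, n = 5) at day 25, against 14.44 in native trachea and 13.78 in day 25 isografts. Foxj1, the regulator of motile cilia, was between 4.12 and 5.05 on every allograft array of these days, against a native mean of 7.42. Epcam, an adhesion molecule of all epithelia, was between 3.99 and 7.44 at day 14 and between 3.03 and 4.08 at day 25. These 3 genes lay below the filter and have no test in the main fit.

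The first principal component of the 10 arrays carried 36.4% of the variance and did not separate the days. At its low end lay day 14 replicate 1 and day 25 replicate 2, which also correlated least with their own groups (median correlations 0.884 and 0.896). The second component carried 26.2% and separated the days. The fat gene list (16 genes on the array, such as Adipoq and Fabp4) had levels of 11.18 and 11.12 on those arrays, and the oxidative phosphorylation list 11.35 and 11.50, each the highest of its group. Skeletal muscle genes, which mark adjoining tissue, had a mean level of 3.54 to 4.48 at day 14 but of 11.69, 3.95, 3.72, 5.15 and 6.89 on day 25 replicates 1 to 5. Without the 2 arrays that stand apart, all 226 called genes kept their sign and 161 stayed called.

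**Figure D1:**
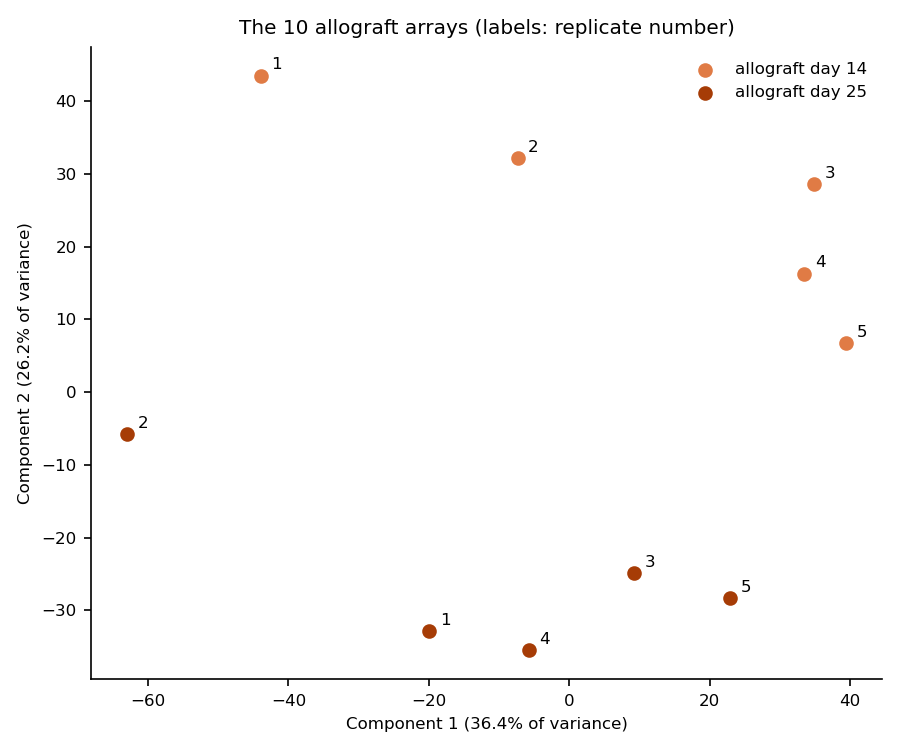
Positions of the 10 allograft arrays on the first 2 principal components of the probe sets compared, in arbitrary units, with each point labelled by its replicate number. Component 2 (26.2% of variance) places all day 14 arrays above all day 25 arrays, while component 1 (36.4%) places day 14 replicate 1 and day 25 replicate 2 at one end.

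Between days 14 and 25 the allografts gained transcripts of cartilage and of immunoglobulin chains and lost transcripts of the remaining epithelium, of neutrophils, of dividing cells, and of the interferon-gamma-inducible genes Ido1 and Ubd. Of 11884 probe sets, 340 were called, that is, had a Benjamini-Hochberg adjusted p under 0.05 in limma (2.86%). Of these, 190 were higher (1.6%) and 150 lower (1.26%) at day 25. Counted by gene, with each gene taken as its probe set of highest mean, 226 genes were called (3.1%), of which 120 rose (1.64%) and 106 fell (1.45%). The 2-fold mark was passed by 266 of the 340 probe sets and the 4-fold mark by 117, of which 72 rose and 45 fell. On 244 of the 340 the values of the groups did not overlap, beside 461 of all probe sets tested (3.88%), 247 of them higher (2.08%) and 214 lower (1.8%) at day 25. The median difference of all probe sets was 0.02, so changes were not read against a shift of the whole scale. With each array centred on the median probe set, 173 were higher and 181 lower.

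In isografts over the same interval, none of the 11884 probe sets was called between day 14 and day 25 by limma (0%), although 784 had an unadjusted p under 0.05, against 1531 in allografts. Without day 25 isograft replicate 1 or replicate 5 there were 2 and 7 calls. The difference between the changes was tested directly as an interaction. It was called for 126 probe sets (1.06%), 61 with a higher (0.513%) and 65 with a lower change (0.547%) in allografts. By gene it was called for 88 (1.21%), 38 higher (0.52%) and 50 lower (0.685%). Of those 88 genes, 83 were also called between the allograft days.

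**Figure D2:**
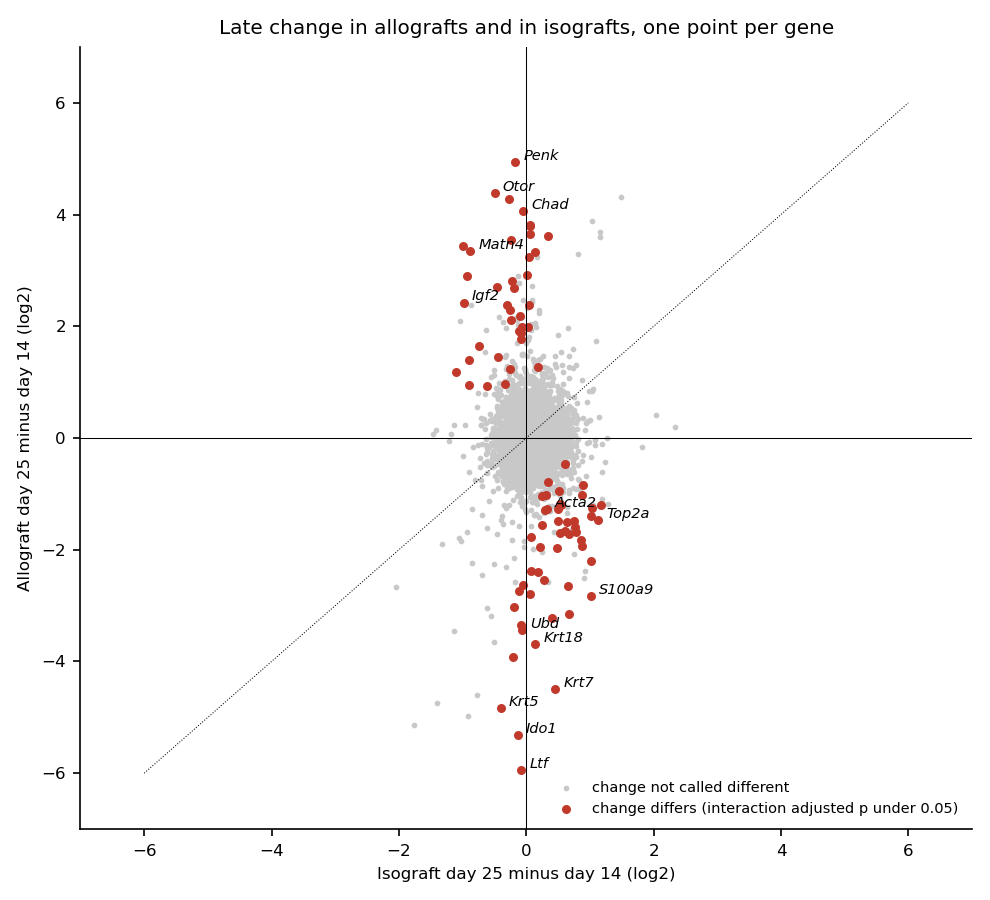
Change from day 14 to day 25 in isografts (horizontal axis) and in allografts (vertical axis), in log2 units, one point for each of 7302 genes, with the dotted line marking equal change. The 88 genes in red, whose change differed between the graft types, lie mostly near 0 on the isograft axis and run from -5.94 for Ltf to 4.95 for Penk on the allograft axis.

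**Figure D3:**
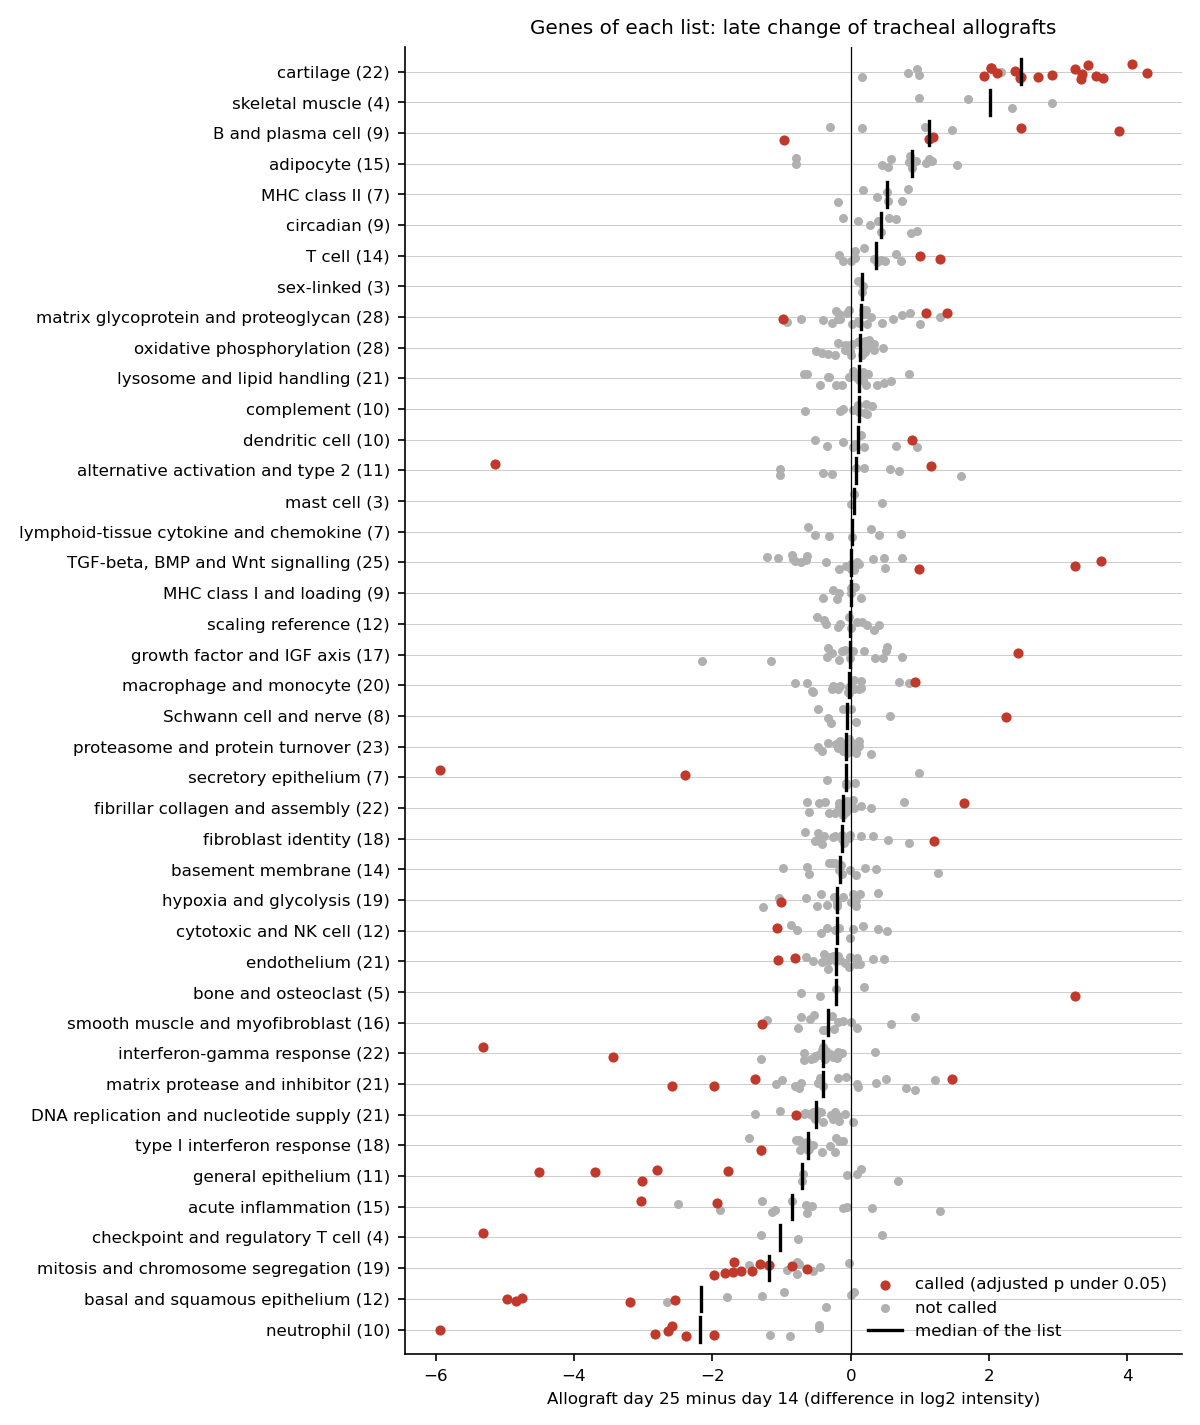
Difference between day 25 and day 14 allografts, in log2 units, for each tested gene of every list with at least 3 tested members (number in brackets), with called genes in red and the list median as a bar. Cartilage lies highest with a median of 2.46 and neutrophil genes lowest with -2.18, while collagen, proteasome and oxidative phosphorylation genes gather around 0.

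Cartilage genes made the largest block of rises. Chondrocytes fill their matrix with type II, IX and XI collagen, the proteoglycan aggrecan, and linking proteins such as matrilins, and they turn to type X collagen as they enlarge. Of 23 listed genes on the array 22 were tested, 17 rose and none fell, with a median difference of 2.46, beside 1.64% of all genes called higher and a median of 0.03 over all genes. On 15 of the 22 the day 25 arrays lay wholly above the day 14 arrays, beside 2.19% of all genes. The mean level of the 23 genes was 5.47, 6.49, 6.28, 6.50 and 7.61 on the day 14 arrays and 9.28, 8.43, 8.66, 9.33 and 8.74 on the day 25 arrays. Every day 25 array was thus above every day 14 array. Native trachea averaged 8.21, day 4, 14 and 25 isografts 7.39, 8.35 and 8.11, and day 4 allografts 7.60. By mean, day 14 allografts were thus the lowest of the 7 groups and day 25 allografts the highest. The day 25 allografts (8.43 to 9.33) overlapped with native trachea (up to 8.60) and day 4 allografts (up to 8.59). They also overlapped with day 14 and day 25 isografts (up to 8.96 and 8.60).

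Col2a1, the main collagen of hyaline cartilage, was at 7.97, 10.31, 9.35, 8.44 and 10.80 at day 14 and at 12.35, 11.72, 11.90, 12.32 and 12.08 at day 25. The groups did not overlap, and the day 25 arrays differed little among themselves. The rise was 2.70 (6.5-fold, SE 0.56, n = 5 per group, adjusted p = 0.00282). Chad, chondroadherin, an adhesion protein of cartilage matrix, was at 6.02, 7.01, 7.74, 7.75 and 8.98 and then at 12.30, 10.71, 11.19, 12.38 and 11.24. It rose by 4.06 (16.7-fold, SE 0.48, adjusted p = 6.05e-07), to a level near the native mean of 12.13. Mia, a small protein secreted by chondrocytes, rose by 4.28 (19.4-fold, SE 0.62, adjusted p = 3.08e-05), and its relative Otor by 4.38 (20.8-fold, SE 0.54, adjusted p = 1.6e-06). Neither gene overlapped between days.

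Matrilins, which link collagen fibrils to other matrix molecules, rose together, with differences of 3.65 for Matn1, 3.34 for Matn3 and 3.34 for Matn4. Col9a1, a chain of the collagen that coats type II fibrils, ranged from 4.40 to 8.60 at day 14 and from 9.38 to 10.57 at day 25, a rise of 3.43 (SE 0.66, adjusted p = 0.00122). Col10a1, the collagen of enlarging (hypertrophic) chondrocytes, rose by 3.25 (9.5-fold, SE 0.57, adjusted p = 0.000421). Comp and Cnmd, a matrix protein and an inhibitor of vessel growth made in cartilage, rose by 2.92 and 3.55. The transcription factors of the lineage moved less. Sox9, which switches on type II collagen, differed by 0.99 (SE 0.32, adjusted p = 0.109), Sox6 by 0.83 (adjusted p = 0.181) and Sox5 by 0.17 (adjusted p = 0.909), none of them called.

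Genes outside the cartilage list rose as well. Frzb and Wif1, secreted proteins that bind Wnt ligands, rose by 3.61 (12.2-fold, SE 0.57, adjusted p = 0.000115) and 3.25 (9.49-fold, SE 0.53, adjusted p = 0.000145). Omd, a small proteoglycan of mineralised tissue, rose by 3.82 (SE 0.53, adjusted p = 1.24e-05). S100b, a calcium-binding protein of Schwann cells that chondrocytes also make, rose by 2.24 (SE 0.48, adjusted p = 0.00449), while the other 7 tested genes of the Schwann cell list were not called. Igf2, a fetal growth factor, was between 4.82 and 7.11 at day 14 and between 8.03 and 8.39 at day 25, a rise of 2.42 (SE 0.41, adjusted p = 0.000254). With each gene taken as its probe set of highest mean, the largest rise was that of Penk, the precursor of enkephalin opioid peptides, by 4.95 (30.8-fold, SE 0.44, adjusted p = 2.64e-09). Penk was at 4.50, 4.57, 5.82, 5.97 and 6.57 at day 14 and at 11.06, 10.58, 10.68, 10.90 and 8.94 at day 25, with native trachea at 8.60. Scg2, a granin of secretory vesicles, rose by 3.80 (SE 0.50, adjusted p = 5.98e-06) from a day 14 range of only 4.28 to 4.62. All day 14 arrays of Scg2 thus lay under the minimum of 5, and it was tested through day 25 alone, where it was high.

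The cartilage change was compared with that of isografts over the same days. The isograft median over the same 22 genes was -0.17. The interaction was called for 10 of them, all with the larger change in allografts, beside 0.52% of all genes. It was 4.11 for Chad (adjusted p = 0.000455), 4.55 for Mia (adjusted p = 0.00372), 4.23 for Matn4 (adjusted p = 0.00045), 4.42 for Col9a1 (adjusted p = 0.00817) and 3.17 for Col2a1 (adjusted p = 0.038). Penk gave 5.12 (adjusted p = 5.72e-06) and Otor 4.88 (adjusted p = 0.000229). Acan was among those not called, with an interaction of 2.36 (adjusted p = 0.265). Beside the rise, the skeletal muscle level of 11.69 on day 25 replicate 1 went with one of the highest cartilage levels (9.28), and the fat-rich day 14 replicate 1 had the lowest (5.47). Without day 25 replicate 1 the count of rises was 13 and the median 2.33, without day 14 replicate 1 it was 13 and 2.04, and without the 2 arrays that stand apart 12 and 2.27. The part of adjoining tissue in the result was not tested.

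Immunoglobulin and plasma cell transcripts rose as well. Plasma cells are the end stage of B cells and secrete antibody, and the J chain joins antibodies into dimers and pentamers. Jchain was at 5.53, 6.63, 6.77, 9.12 and 7.60 at day 14 and at 10.86, 10.14, 11.14, 11.38 and 11.53 at day 25, with no overlap. It rose by 3.88 (14.7-fold, SE 0.72, adjusted p = 0.000719). Pou2af1, a coactivator of immunoglobulin genes in B cells, rose by 2.47 (5.53-fold, SE 0.47, adjusted p = 0.00101), with day 14 replicate 4 (6.01) above the lowest day 25 array (5.44). With only the compared arrays fitted it was not called (adjusted p = 0.0549). Among 16 tested probe sets of 7 immunoglobulin heavy and light chain symbols, 13 rose and none fell, beside 1.6% of all probe sets called higher, with a median difference of 3.75. They included Igkv9-120 (4.32), Iglv1 (3.69) and Igha, the IgA heavy chain (3.60, adjusted p = 0.00449).

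Immunoglobulin probe sets share sequence between genes, so which chain rose is uncertain, and they disagreed for Ighm, the IgM heavy chain. Its probe set of highest mean differed by 1.47 (SE 0.76, adjusted p = 0.43), while the other 6 tested probe sets of Ighm rose, by 1.78 to 6.53. Of the 9 tested B and plasma cell genes 4 rose (Cd22, Cd79b, Pou2af1 and Jchain), beside 1.64% of all genes. Of the same 9 genes 1 fell, beside 1.45% of all genes, and the median was 1.13. The 8 genes of this list below the filter had a median of 0.18. Without a filter 2 of 17 rose and 1 fell, with a median of 0.33. Cd79b, a chain of the B cell receptor, and Cd22, a brake on that receptor, differed by 1.13 and 1.19. The calls of Cd79b and Cd22 were lost without day 14 replicates 1, 2 or 5 or day 25 replicates 1, 4 or 5 (and for Cd22 also without day 14 replicate 3), with differences of 0.85 to 1.24 and adjusted p of 0.0668 to 0.179. Ms4a1, the B cell surface protein CD20, differed by 0.17 (adjusted p = 0.924). Sdc1, a proteoglycan of plasma cells that epithelium also carries, fell by 0.97 (adjusted p = 0.0197), but not without day 14 replicates 3 or 4 or day 25 replicates 1 or 2 (adjusted p 0.0572 to 0.0887) or with only the compared arrays fitted (adjusted p = 0.0817).

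In isografts Jchain differed by 1.03 over the same days and the 16 immunoglobulin probe sets by a median of 0.11. Igkv9-120, Iglv1 and Igha differed there by 1.48, 1.16 and 1.16, and none of these 3 had a called interaction (adjusted p = 0.122, 0.191 and 0.485). The interaction was called for 5 of the 16 probe sets, beside 1.06% of all probe sets. For Jchain it was 2.85 (SE 1.01, adjusted p = 0.253), so a difference of its change between the graft types was not established. On isograft replicates 1 to 5 Jchain was at 9.93, 9.63, 9.52, 8.68 and 4.23 at day 25, and at 8.69 or less at day 14. Day 25 isograft replicate 5, which stands apart, lay below every day 14 isograft, so the small isograft difference leans on 1 array. The count of 4 B cell rises was 2 without day 14 replicates 1, 2 or 5 or without day 25 replicates 4 or 5.

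**Figure D4:**
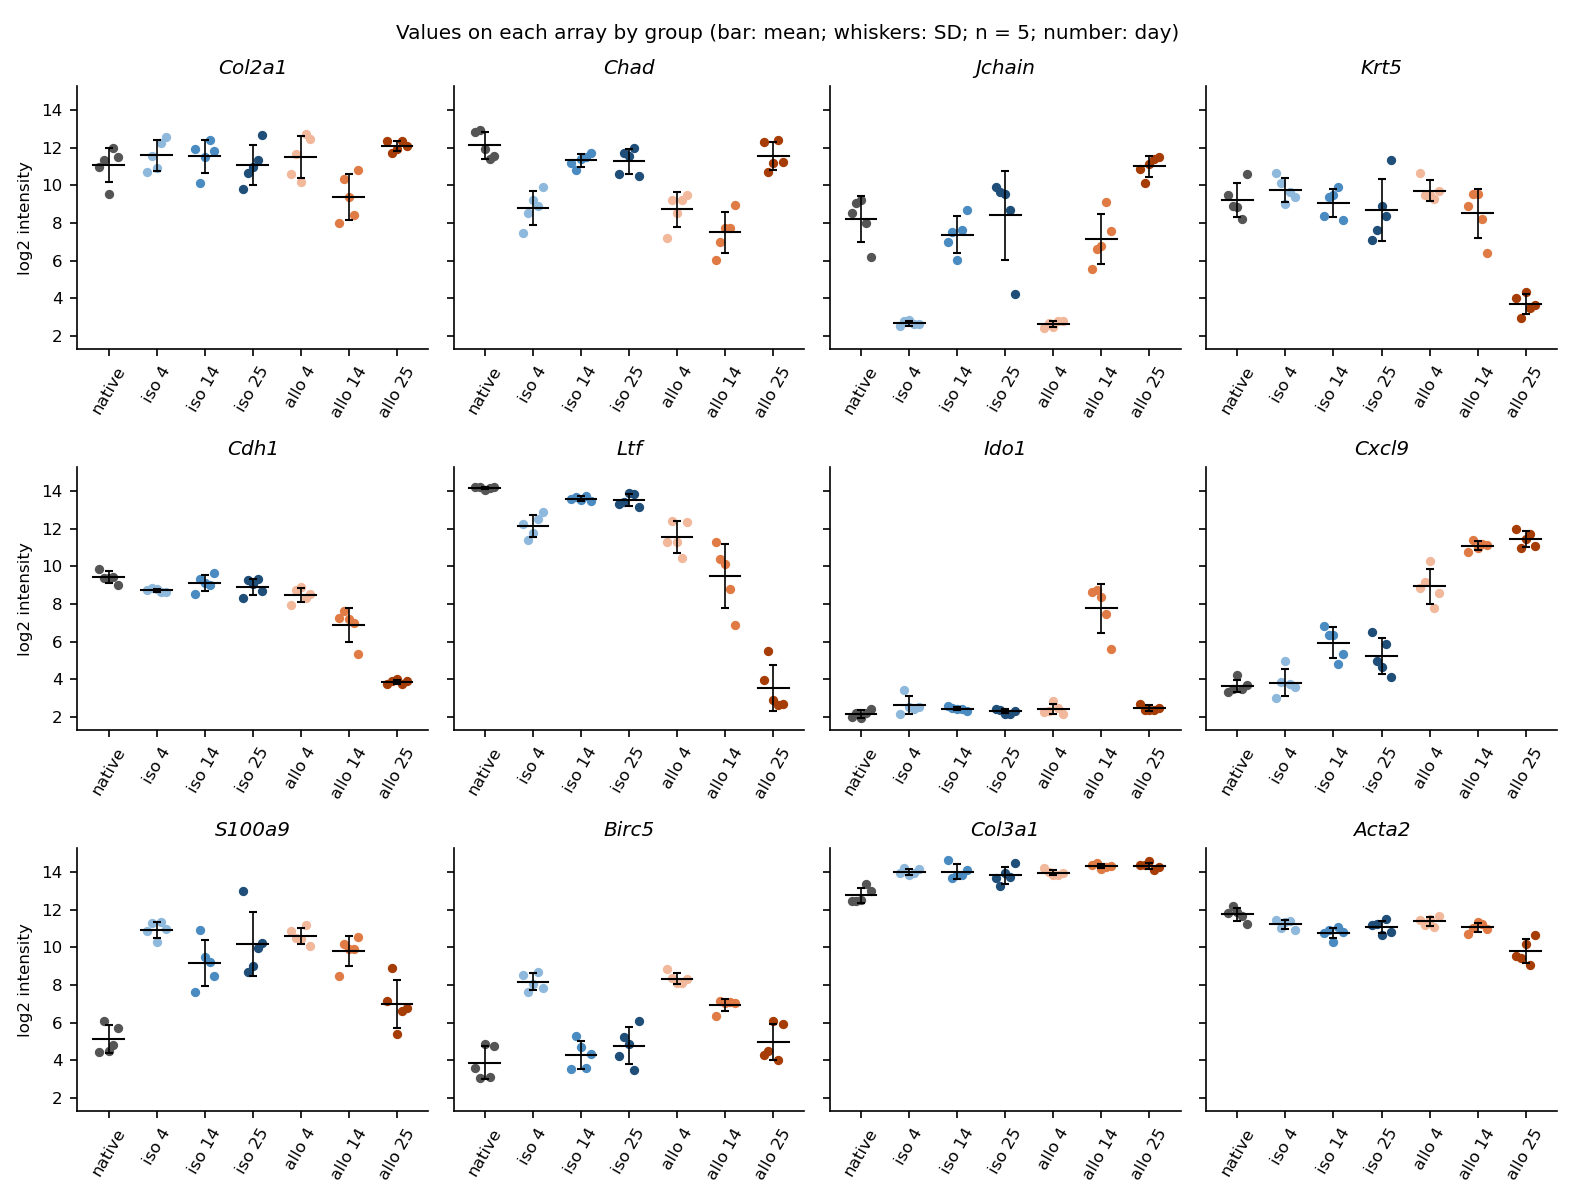
Values of 12 genes on every array in log2 intensity, by group (native, isografts and allografts at days 4, 14 and 25), with bars for the mean and whiskers for the SD of 5 arrays. Ido1 is high in day 14 allografts alone (mean 7.77, against 2.46 at day 25), Cxcl9 stays at 11.09 and 11.44, Krt5 and Cdh1 end at 3.68 and 3.86 at day 25, and Col3a1 stays at 14.30 and 14.33.

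Epithelial transcripts that were still present at day 14 were near the bottom of the scale at day 25. Basal cells are the stem cells of the airway surface, carry keratins 5 and 14, and spread over the wall after injury. Krt5 was at 8.88, 9.54, 9.54, 8.23 and 6.41 at day 14 and at 4.01, 2.95, 4.33, 3.49 and 3.63 at day 25. The groups were far apart, with day 14 replicate 5 the closest to the later values. Krt5 fell by 4.84 on the log2 scale (28.6-fold, SE 0.58, adjusted p = 1.13e-06) and Krt14 by 4.97 (31.4-fold, SE 0.77, adjusted p = 8.37e-05). At day 14 Krt5 averaged 8.52, near the native 9.20, and Krt14 averaged 9.21 against a native 7.38. Krt6a, a keratin of wounded epithelium, fell by 4.75 (SE 1.13, adjusted p = 0.0113). That probe set had an adjusted p of 0.0577 in the absence of the 2 arrays that stand apart. The other tested Krt6a probe sets fell by 6.70 (adjusted p = 0.00167) and 3.67 (adjusted p = 0.00534).

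Genes common to epithelia fell likewise. Krt7 and Krt18, keratins of simple epithelium, fell by 4.50 (22.6-fold, SE 0.53, adjusted p = 6.57e-07) and 3.69 (12.9-fold, SE 0.35, adjusted p = 8.19e-09). Cdh1, the adherens junction protein E-cadherin, was at 7.26, 7.63, 7.21, 6.98 and 5.34 at day 14 and between 3.74 and 4.01 at day 25, and fell by 3.02 (SE 0.28, adjusted p = 3.13e-09). Spint1 and St14, an inhibitor and its partner protease at the epithelial surface, fell by 2.79 and 1.77, and Dsp, the desmosome protein desmoplakin, by 3.18. Muc1, a membrane mucin, fell by 2.40 (SE 0.46, adjusted p = 0.00129). The interaction with graft type was called for Krt7 (-4.95, adjusted p = 0.000131), Krt18 (-3.83, adjusted p = 8.97e-06), Krt5 (-4.44, adjusted p = 0.00246) and Muc1 (-2.58, adjusted p = 0.0416), but not for Krt14 (-4.05, adjusted p = 0.0613).

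By list, 5 of 11 tested general epithelial genes fell, with a median of -0.70, and 5 of 12 basal and squamous genes, with a median of -2.17. No member of either list rose, and 1.45% of all genes were called lower. These counts are a description, since the filter shaped them. All day 25 arrays of Cdh1, Krt7, Krt18, Krt5 and Krt14 lay under the minimum of 5, so these genes were tested through day 14 alone. In all, 39 probe sets were tested through 1 of the 2 groups alone, of which 35 were called. A further 17 of 28 general and 13 of 25 basal genes on the array lay below the filter. Without a filter 11 and 8 genes were called lower, and with a filter at log2 7 it was 0 of 2 (median 0.31) and 2 of 3 (median -4.97). The mean level of all 28 general epithelial genes was 5.83, 5.67, 5.77, 5.23 and 4.56 at day 14 and 4.20, 3.79, 4.10, 4.01 and 4.06 at day 25, against 7.77 in native trachea and 7.31 in day 25 isografts. Each day 14 array was above each day 25 array. Secretory genes had 2 falls among 7 tested (Ltf and Muc1), beside 1.45% of all genes, and 8 among 21 without a filter. The ciliated list was already at 3.94 at day 14 and was at 3.86 at day 25, against 5.41 in native trachea.

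Neutrophil genes fell. Neutrophils carry S100a8 and S100a9, a calcium- and zinc-binding pair, and granule proteins such as lactoferrin, lipocalin and collagenase. Of 10 tested genes 6 fell, beside 1.45% of all genes, and none rose, with a median of -2.18, and the other 4 differed by -1.17 to -0.45. The arrays of 3 did not overlap, beside 1.89% of all genes with lower, non-overlapping day 25 arrays. Both counts include Ltf, lactoferrin, which is also in the secretory epithelium list and may not mark neutrophils here. In native trachea Ltf was between 14.1 and 14.2, while S100a9 was between 4.5 and 6.1. The list level was 6.36, 7.11, 6.75, 6.74 and 7.09 at day 14 and 5.11, 5.94, 4.81, 5.18 and 5.49 at day 25, with no overlap. S100a9 fell by 2.83 (7.12-fold, SE 0.62, adjusted p = 0.00494), from 8.48, 10.17, 9.92, 9.91 and 10.53 to 7.15, 8.91, 5.41, 6.62 and 6.76, with day 25 replicate 2 above the lowest day 14 array. S100a8 fell by 2.39 (adjusted p = 0.0391). That call was lost without any 1 of day 14 replicates 2 to 5 or day 25 replicates 1, 3, 4 or 5 (adjusted p 0.0623 to 0.127). The count of falls in the list ranged from 4 to 6 on leaving out 1 array. Mmp8, neutrophil collagenase, fell by 1.98 (SE 0.44, adjusted p = 0.0055). Mmp9, a gelatinase of neutrophils and macrophages, fell by 2.58 (SE 0.60, adjusted p = 0.00971), but not without day 25 replicate 1 (-2.23, adjusted p = 0.0563) or with only the compared arrays fitted (adjusted p = 0.0591). The other Mmp9 probe set fell by 2.77 (adjusted p = 0.0188).

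Ltf, lactoferrin, had the largest fall when each gene was taken as its probe set of highest mean, 5.94 (61.4-fold, SE 0.53, adjusted p = 2.48e-09). It was at 11.26, 10.40, 10.11, 8.79 and 6.90 at day 14 and at 3.98, 5.51, 2.92, 2.66 and 2.68 at day 25. Gland epithelium also secretes Ltf, which is in the secretory list too, and native trachea stood at 14.16. Lcn2, a lipocalin of neutrophils and of inflamed epithelium, fell by 2.64 (SE 0.60, adjusted p = 0.00679). Of the other lists, the secretory list fell alongside from a mean of 5.35 to 4.14, and its part in the Ltf and Lcn2 falls was not tested. In isografts S100a9 differed by 1.01 in the other direction, and the interaction was -3.84 for S100a9 (SE 0.87, adjusted p = 0.0166) and -5.86 for Ltf (SE 0.75, adjusted p = 8.29e-06). On the day 25 isografts S100a9 was at 13.00, 8.66, 9.02, 9.96 and 10.21, and on the day 14 isografts at 10.93 or less. The isograft rise of S100a9 thus leans on day 25 isograft replicate 1.

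Of 15 tested genes of acute inflammation 2 fell, beside 1.45% of all genes. None rose and 13 lay below 0, with a median of -0.84. Saa3, an acute-phase protein made in inflamed tissue, fell by 3.03 (8.19-fold, SE 0.76, adjusted p = 0.0191), but not without day 14 replicate 5 (-2.81, adjusted p = 0.0553). Il1b, interleukin 1 beta, was between 8.13 and 9.61 at day 14 and between 6.69 and 8.09 at day 25, and fell by 1.93 (SE 0.51, adjusted p = 0.027). That call was lost without any 1 of day 14 replicates 2, 3, 4 or 5 or day 25 replicates 1, 2 or 4 (-1.93 to -1.80, adjusted p 0.0552 to 0.0895). Arg1, an arginine-degrading enzyme of wound macrophages and myeloid cells, fell by 5.14 (35.4-fold, SE 0.94, adjusted p = 0.000691). In isografts it differed by -1.76, and the interaction was not called (-3.39, adjusted p = 0.364). Its day 14 arrays lay between 9.02 and 10.69, and its day 25 arrays spread widely at 2.35, 5.44, 5.61, 2.28 and 8.43. Ppbp, a chemokine of platelets, fell by 4.60 (24.2-fold, SE 0.97, adjusted p = 0.00361), and Serpinb2, an inhibitor of plasminogen activators, by 3.65 (12.6-fold, SE 0.67, adjusted p = 0.000635).

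Interferon-gamma-inducible genes were mostly not called. Interferon-gamma from T and NK cells acts through the JAK-STAT pathway and induces chemokines, GTPases, the immunoproteasome, MHC molecules and the tryptophan-degrading enzyme IDO, which restrains T cells. Ido1 was at 8.63, 8.77, 8.37, 7.46 and 5.62 at day 14 and at 2.71, 2.35, 2.40, 2.37 and 2.48 at day 25. All day 25 arrays were thus at the level of native trachea (mean 2.16), of isografts (2.44 and 2.31) and of day 4 allografts (2.42). Ido1 fell by 5.31 (39.7-fold, SE 0.33, adjusted p = 3.3e-13). All day 25 arrays of Ido1 lay under the minimum of 5, so it was tested through day 14 alone, where it was high. Of 39 probe sets tested through 1 group alone 35 were called, so the filter shaped this call. Ido1 kept the call in every setting that tested it, no filter included. Ubd, a ubiquitin-like modifier induced by interferon-gamma and TNF, was between 8.05 and 8.85 and then between 4.59 and 5.67, and fell by 3.44 (10.8-fold, SE 0.21, adjusted p = 1.95e-13).

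Over the same days Cxcl9, an interferon-gamma-dependent chemokine for activated T cells, was high throughout and was not called. It was at 10.76, 11.38, 10.96, 11.20 and 11.13 at day 14 and at 11.96, 10.98, 11.47, 11.72 and 11.06 at day 25. The difference was 0.35 (SE 0.41, 95% interval -0.48 to 1.19, adjusted p = 0.826), and both days lay far above the native mean of 3.65. Of the 22 tested genes of this list only Ido1 and Ubd were called, both lower, beside 1.45% of all genes called lower. However, 21 of the 22 differences were below 0, with a median of -0.41. The list level ran from 7.96 to 8.47 at day 14 and from 7.33 to 7.88 at day 25, without overlap. Cd274, the checkpoint ligand PD-L1, differed by -1.30 with no overlap between days but was not called (SE 0.43, adjusted p = 0.111). The interaction was called for Ido1 (-5.18, adjusted p = 9.24e-09) and Ubd (-3.37, adjusted p = 5.44e-09).

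Type I interferon response genes had all 18 tested differences below 0, with a median of -0.62, and 1 call. Oasl1, an antiviral regulator, fell by 1.30 (SE 0.36, adjusted p = 0.0425). That call was lost without any 1 of day 14 replicates 1 to 4 or day 25 replicates 1 to 4 (-1.33 to -1.11, adjusted p 0.0609 to 0.146), and with no filter (adjusted p = 0.0678). Ifi202b, an interferon-inducible DNA-binding protein whose level is known to differ between inbred mouse strains, fell by 3.92 (15.2-fold, SE 0.46, adjusted p = 5.92e-07). It was between 7.43 and 9.51 at day 14 and between 4.57 and 5.00 at day 25, while native trachea averaged 8.51, day 4 allografts 9.51 and isografts 9.77 and 9.56.

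T cell, macrophage and MHC genes gave few calls. Cd3e, a chain of the T cell receptor complex, differed by -0.17 (95% interval -0.74 to 0.39, adjusted p = 0.891), and Cd8a, the coreceptor of cytotoxic T cells, by 0.00 (95% interval -0.62 to 0.62). Of 14 tested T cell genes 2 rose (Cxcr6 and Cd28), beside 1.64% of all genes, with a list median of 0.36. Cxcr6, a chemokine receptor of tissue-resident T cells, rose by 1.00 (SE 0.22, adjusted p = 0.00574). The difference was 0.84 and not called in the absence of the 2 arrays that stand apart (adjusted p = 0.0679), nor was it called with only the compared arrays fitted (adjusted p = 0.201). Its second probe set differed by 0.69 (adjusted p = 0.321). Cd28, a costimulatory receptor, rose by 1.29 (SE 0.37, adjusted p = 0.0475). It lost the call on omission of any 1 of day 14 replicates 1 to 4 or day 25 replicates 1 to 4 (1.12 to 1.38, adjusted p 0.0555 to 0.157). It also lost it under array weights, centring on the median probe set, no filter, repeated quantile normalization, and the fit of only the compared arrays (adjusted p 0.0529 to 0.0744), while a second Cd28 probe set rose by 1.52 (adjusted p = 0.00417).

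Gzmb, a granule protease of killer cells, fell by 1.07 (SE 0.28, adjusted p = 0.0271), and was the only call among 12 cytotoxic genes. It was at 7.82, 8.60, 8.68, 8.56 and 9.09 and then at 7.54, 7.37, 7.41, 7.26 and 7.83, which is a nearly complete separation. The call was lost without any 1 of day 14 replicates 2 to 5 or day 25 replicates 1 to 4 (-1.08 to -0.93, adjusted p 0.0555 to 0.0969). Cd68, a lysosomal protein of macrophages, differed by 0.02 (95% interval -0.66 to 0.69). Adgre1, the macrophage surface protein F4/80, rose by 0.93 (SE 0.23, adjusted p = 0.0152), the only call among 20 macrophage genes, and lost it without day 25 replicates 3 or 5 (0.75 and 0.77, adjusted p = 0.0728 and 0.062) and with only the compared arrays fitted (adjusted p = 0.144). Its change differed from that in isografts by 1.54 (adjusted p = 0.00784). No MHC gene was called. The 7 class II genes had a median of 0.52 and the 9 class I and loading genes of 0.00, with B2m, the light chain of class I, at 0.01 (95% interval -0.32 to 0.34).

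**Figure D5:**
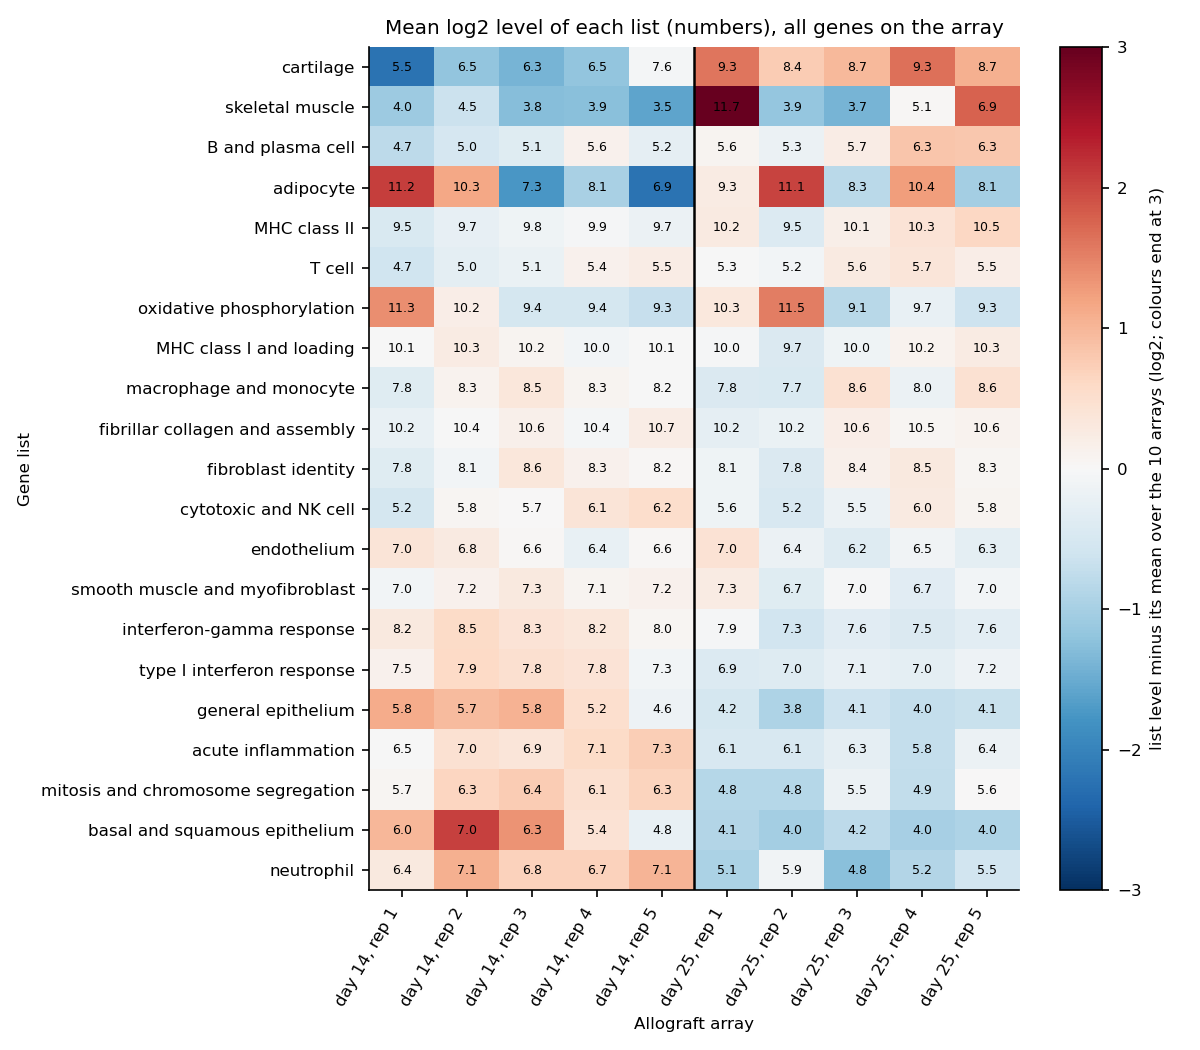
Mean log2 level of 21 gene lists on each allograft array (numbers), coloured by the distance from the mean of the 10 arrays, with day 14 on the left and day 25 on the right of the line. On every day 25 array cartilage is higher, and general epithelial, basal, neutrophil and mitosis levels are lower, than on any day 14 array, by a small margin for mitosis (5.67 at day 14 against 5.64 at day 25), whereas fat and oxidative phosphorylation genes peak on 1 array of each day (adipocyte 11.18 and 11.12).

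Genes of cell division fell. Entry into mitosis is driven by Cdk1 with B-type cyclins, chromosomes are held to the spindle by proteins such as Birc5 (survivin), and Cdc20 and Ube2c direct the destruction of cyclins that ends mitosis. Of 19 tested genes 10 fell, beside 1.45% of all genes, none rose and all 19 differences were below 0, with a median of -1.18. The level of all 31 genes on the array was 5.67, 6.27, 6.38, 6.11 and 6.30 at day 14 and 4.78, 4.76, 5.46, 4.88 and 5.64 at day 25. Day 25 replicates 3 and 5 came closest to the day 14 arrays, and native trachea averaged 4.40. Birc5 fell by 1.98 (3.94-fold, SE 0.43, adjusted p = 0.00541), from 6.33, 7.14, 7.05, 7.09 and 7.06 to 4.30, 4.48, 6.09, 4.01 and 5.90. Ube2c fell by 1.82 (3.53-fold, SE 0.42, adjusted p = 0.00798) and Cks2, a subunit of the Cdk1 complex, by 1.70 (SE 0.28, adjusted p = 0.000151).

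The count of mitotic genes depended on single arrays. It was 4 to 6 without day 14 replicates 2, 3, 4 or 5 or day 25 replicates 1, 2 or 4, and 11 to 13 without day 14 replicate 1 or day 25 replicates 3 or 5. Without the 2 arrays that stand apart it was 6. Birc5, Ube2c, Cks2 and Pbk, a mitotic kinase, kept their calls on all 10 omissions. Top2a, the topoisomerase that untangles chromosomes, differed by -1.47 (SE 0.43, adjusted p = 0.0591). It was called without day 14 replicate 1 (-1.62, adjusted p = 0.0462) and without day 25 replicates 3 or 5 (-1.64 and -1.71, adjusted p = 0.0425 and 0.0242). In isografts the same 19 genes had a median of 0.38. The interaction was called lower for 8 of them, beside 0.685% of all genes. These included Birc5 (-2.46, adjusted p = 0.0386), Ube2c (-2.68, adjusted p = 0.0131) and Top2a (-2.59, adjusted p = 0.0247). The mean level of all 31 genes spread from 4.38 to 5.85 on the day 25 isografts. Birc5 was at 6.08 on day 25 isograft replicate 5, which stands apart, and at 5.21 at most on the others. Among 21 genes of DNA replication 1 fell, beside 1.45% of all genes, with a median of -0.50. It was Rrm1, a subunit of ribonucleotide reductase, which fell by 0.79 (SE 0.21, adjusted p = 0.027). The call was lost without any 1 of day 14 replicates 2 to 4 or day 25 replicates 1, 2 or 4 (adjusted p 0.0515 to 0.103), and with only the compared arrays fitted (adjusted p = 0.0641). The second Rrm1 probe set differed by -0.30 (adjusted p = 0.917), and the mean of both by -0.54 (adjusted p = 0.512).

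The promoters of mitotic genes are known to carry CCAAT boxes, bound by NF-Y, and a cell cycle homology region (CHR) near the start site, bound by the DREAM and MuvB complexes. RefSeq promoters (GRCm38.p6, 300 bases around each annotated start, mostly before it) were at hand for 8 of the 10 genes that fell. The CCAAT letters, read on both strands, occurred in 6 of the 8 (75%), against 37.4% of 32851 promoters of the same length. The CHR, searched as TTTGAA on both strands, occurred in 5 of the 8 (62.5%), against 17.9%, and both occurred in 5 (62.5%), against 6.95%. These shares are a description of 8 promoters, and no match for Mad2l1 and Birc5 says only that the letters are not in this window. The promoters of 3 of the genes that hold both are shown, with either motif in capitals on whichever strand it was read and the text running 5′ to 3′ along the gene.
Ube2c promoter, chr2:164769679-164769978, plus strand: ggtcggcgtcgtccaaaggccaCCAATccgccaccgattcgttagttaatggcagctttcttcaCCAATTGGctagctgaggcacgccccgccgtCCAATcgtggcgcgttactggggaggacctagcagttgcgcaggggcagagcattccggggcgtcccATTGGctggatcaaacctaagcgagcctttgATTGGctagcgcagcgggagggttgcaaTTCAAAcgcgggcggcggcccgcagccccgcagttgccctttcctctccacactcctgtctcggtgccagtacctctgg
Ccnb2 promoter, chr9:70421505-70421804, minus strand: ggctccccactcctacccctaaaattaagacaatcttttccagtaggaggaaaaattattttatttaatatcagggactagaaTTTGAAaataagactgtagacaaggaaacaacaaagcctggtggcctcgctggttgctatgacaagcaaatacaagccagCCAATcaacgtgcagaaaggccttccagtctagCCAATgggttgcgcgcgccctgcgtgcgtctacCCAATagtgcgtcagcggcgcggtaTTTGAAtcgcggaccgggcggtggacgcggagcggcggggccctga
Cdk1 promoter, chr10:69352863-69353162, minus strand: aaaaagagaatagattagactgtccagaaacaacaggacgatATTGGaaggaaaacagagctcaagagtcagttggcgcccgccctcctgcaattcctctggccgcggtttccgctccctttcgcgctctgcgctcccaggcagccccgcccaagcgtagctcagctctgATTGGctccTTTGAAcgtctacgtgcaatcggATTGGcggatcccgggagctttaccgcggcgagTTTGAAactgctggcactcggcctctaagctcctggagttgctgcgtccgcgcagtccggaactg

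In Ccnb2, which encodes cyclin B2, the CCAAT boxes began 87, 54 and 21 bases before the start, at an even spacing of 33 bases. In Cdk1 a pair of boxes began 80 and 48 bases before the start, 32 bases apart, and a CHR followed 15 bases before the start. Ube2c had boxes 88 and 57 bases before the start, 31 bases apart, and a CHR 29 bases before it, and further boxes upstream, including 1 overlapping pair. Ccnb2 fell by 1.59 (SE 0.41, adjusted p = 0.0247) and Cdk1 by 1.42 (SE 0.40, adjusted p = 0.0461). Their calls were lost without any 1 of day 14 replicates 2, 3 or 5 or day 25 replicates 1, 2 or 4 (for Cdk1 also without day 14 replicate 4), with adjusted p of 0.0523 to 0.186. For Ubd, which fell without being a mitotic gene, the interferon-gamma-activated (GAS) letters TTCNNNGAA, a palindrome that reads the same on both strands, were not in the window, as in most promoters (8.3% hold them).

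The interstitial collagens of scar tissue were high at both days. Col3a1, the collagen of early scar and vessel walls, was at 14.36, 14.47, 14.13, 14.28 and 14.29 at day 14 and at 14.34, 14.37, 14.56, 14.12 and 14.29 at day 25. The difference was 0.03 (SE 0.19, 95% interval -0.35 to 0.42), and native trachea averaged 12.75. Col1a1, the main collagen of scar and bone, differed by -0.12 (95% interval -0.75 to 0.52), and Postn, periostin, a protein of activated fibroblasts, by 0.18 (95% interval -0.42 to 0.79). Their means at day 14, 13.53 and 13.10, lay above the native 10.74 and 10.33. Of 22 collagen and collagen assembly genes 1 rose and none fell, with a median of -0.11. That gene was Col8a1, a short-chain collagen of vessel walls, which rose by 1.64 (3.12-fold, SE 0.30, adjusted p = 0.000761) and by 2.38 more than in isografts (adjusted p = 0.00161).

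Eln, the elastic fibre protein, was at 7.41, 7.61, 6.71, 7.42 and 7.97 and then at 9.37, 8.47, 8.52, 8.97 and 8.78. It rose by 1.40 without overlap (2.64-fold, SE 0.29, adjusted p = 0.00291), to near the native mean of 9.04. Timp3, an inhibitor of matrix proteases, rose by 1.46 (SE 0.34, adjusted p = 0.0103) on its probe set of highest mean, while its other 3 probe sets, all above 0, were not called. Gsn, gelsolin, an actin-severing protein, rose by 1.21 (SE 0.26, adjusted p = 0.00449). With only the compared arrays fitted it was not called (adjusted p = 0.0658), and its other 3 tested probe sets, also above 0, were not called. Gsn was the only call among 18 fibroblast genes. Ccn2, a matricellular protein induced by TGF-beta, differed by 1.29 (SE 0.40, adjusted p = 0.0789). In the basement membrane list none of 14 tested genes was called, and 2 of 19 were called lower without a filter. The level of all 19 ran from 6.87 to 7.22 at day 14 and from 6.47 to 6.83 at day 25, without overlap, and the 5 genes below the filter had a median of -0.81.

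Acta2, the actin of smooth muscle and myofibroblasts, fell by 1.28 (2.42-fold, SE 0.23, adjusted p = 0.000444). It was at 10.72, 11.03, 11.34, 11.23 and 10.99 at day 14 and at 9.54, 9.45, 10.19, 9.08 and 10.66 at day 25, where only replicate 5 came near the day 14 range. In isografts it differed by 0.32, and the interaction was -1.60 (SE 0.32, adjusted p = 0.005). The other 15 tested genes of the smooth muscle list were not called, and the list median was -0.32. Tagln and Myl9, further contractile genes, differed by -0.71 and -0.54. Among 21 endothelial genes 2 were called lower, beside 1.45% of all genes. Selp, the adhesion protein P-selectin, fell by 1.05 (adjusted p = 0.0429), a call absent on omission of any array but day 25 replicates 1 and 5 (adjusted p 0.057 to 0.142), and absent with no filter (adjusted p = 0.0655). Plvap, a protein of fenestrated vessels, fell by 0.80 (adjusted p = 0.0294), a call absent on omission of day 14 replicates 2, 3 or 5 or day 25 replicates 2, 3 or 4 (adjusted p 0.052 to 0.116) and with only the compared arrays fitted (adjusted p = 0.0745). Pecam1, an adhesion protein of vessels, differed by 0.09 (95% interval -1.26 to 1.45).

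Fat, muscle and energy genes varied widely between arrays of the same day. None of the 15 tested fat genes was called, with a median of 0.88, and the list ran from 6.87 to 11.18 at day 14 and from 8.07 to 11.12 at day 25. Skeletal muscle genes were mostly under the filter, with 4 of 23 tested and none called, and Myl1, a fast-muscle myosin light chain, differed by 2.91 with an SE of 1.28 (adjusted p = 0.297). In the oxidative phosphorylation list none of 28 genes was called (median 0.13), nor was any of 23 proteasome genes (median -0.07) or of 10 complement genes (median 0.12). The circadian list, whose members cycle with the hour of the day, had a median of 0.43 in allografts and 0.42 in isografts, with none of 9 called.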

How the data were processed

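Total RNA of tracheal tissue was measured on 35 Affymetrix arrays, 1 per sample. The deposited values are log2 intensities that the authors computed with GCRMA 1.1.3, per the submitters' processing notes, which adjusts for background by probe sequence, normalizes between arrays and summarises probes into probe sets. Low values therefore depend on that correction, and the number of arrays limits the precision.

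From these values, limma 3.58.1 in R 4.3.3 was fitted with 7 group means over all 35 arrays (28 residual degrees of freedom) and empirical Bayes variances. The contrasts were allograft day 25 minus 14, the same in isografts, and their difference (interaction). Adjusted p-values (Benjamini-Hochberg) covered all 11884 probe sets tested, and a call is an adjusted p under 0.05. Of 22626 non-control probe sets 20380 had 1 gene symbol, 691 several and 1555 none, and only the first were named. The filter left 260 probe sets with exactly 5 arrays at the minimum, of which 38 were called, and left out 327 with exactly 4. Of 39 probe sets tested through 1 group alone, 35 were called.

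The rule for named genes took the 12 largest called rises and the 12 largest called falls without overlap between the days, up to 2 called members each way of each of 46 lists (otherwise its brightest member), the 6 largest interactions each way, and a set of fixed markers. Cartilage, epithelial, mitotic and immunoglobulin genes beyond this rule were chosen after their values were seen. The members and lists were chosen with earlier results of these data known. On simulated data the fit recovered 66% of changes of log2 1 and 97% of log2 2, with 11 false calls. Alternatives covered the filter, centring, normalization, variance model, array weights, arrays fitted, threshold, probe set choice, replicate block and omission of each array, and the omission of arrays that stand apart was added after seeing the data.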

Additional observations from a re-analysis of the deposited data

Results flagged for a closer look

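An array stood far from the other 4 of its group in 14 of 268 groups of 5 examined, that is, its gap to the nearest array exceeded 0.71 of the group's range. Chance alone gives about 1 group in 20. At day 14 this held for Igkv9-120 (replicate 4 highest, gap 0.717 of the range), Serpinb2 (replicate 5 lowest, 0.753), Tgfbi (replicate 1 lowest, 0.768), Birc5 (replicate 1 lowest, 0.885), Car2 (replicate 5 highest, 0.759) and the sex-linked list (replicate 3 highest, 6.62 against 5.27 to 5.57, 0.780). At day 25 it held for Penk (replicate 5 lowest, 8.94 against 10.58 to 11.06, 0.773), Tubb4b (replicate 3 lowest, 0.817), Col10a1 (replicate 1 highest, 0.841), Psma3 (replicate 2 highest, 0.714) and Col1a1 (replicate 1 lowest, 0.774). The lists concerned at day 25 were complement (replicate 2 lowest, 8.51 against 9.08 to 9.26, 0.770), ciliated epithelium (replicate 1 highest, 4.05 against 3.79 to 3.82, 0.880) and Schwann cell and nerve (replicate 2 lowest, 0.876). Day 25 replicates 1 and 2 accounted for 3 such values each.

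The change from day 14 to day 25 differed between allografts and isografts, by the interaction test in limma, for 32 named genes. The allograft change was higher for Penk (5.12), Otor (4.88), Mia (4.55), Col9a1 (4.42), Matn4 (4.23), Chad (4.11), Omd (3.76), Scg2 (3.74), Matn1 (3.59), Igf2 (3.41), Frzb (3.27), Wif1 (3.21), Col2a1 (3.17), Col8a1 (2.38), Eln (2.30) and the macrophage gene Adgre1 (1.54). It was lower for the epithelial genes Krt7 (-4.95), Krt5 (-4.44), Krt18 (-3.83) and Muc1 (-2.58), and for Ltf (-5.86), S100a9 (-3.84) and Il1b (-2.81). Interferon-inducible genes with a lower change were Ido1 (-5.18), Ifi202b (-3.72) and Ubd (-3.37). Genes of dividing cells were Ube2c (-2.68), Top2a (-2.59), Birc5 (-2.46) and Rrm1 (-1.13), and Car2 (-1.89) and Acta2 (-1.60) complete the count.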

How the results depend on the processing

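Of 85 named genes tested 60 were called, 39 of them in every one of 22 settings that tested them, and none of the 60 changed sign. The 340 allograft calls became 192 with a filter at log2 7, 194 at an adjusted p under 0.01, 276 with only the compared arrays fitted, 397 with no filter and 468 with array weights, and ranged from 236 to 383 on leaving out 1 array. The 126 interaction calls became 60 at an adjusted p under 0.01 and ranged from 86 to 171. The 0 isograft calls ranged from 0 to 7 on leaving out 1 array and were 8 without the 2 arrays that stand apart in other groups (native 5 and isograft day 25 replicate 5). With no filter the list median was -1.02 for neutrophil, -0.050 for checkpoint and -1.37 for basal genes. With a filter at log2 7, which tests fewer genes, it was -4.97 for basal, 0.53 for secretory, 0.31 for general epithelial, 0.63 for circadian and 0.32 for Schwann cell genes. Replicate numbers were not used as pairs in the main fit. Deviations of same-numbered allograft arrays from their group means correlated at 0.089 to 0.414, all above 0. Differently numbered arrays correlated at -0.524 to 0.694, the highest being day 25 replicate 2 with day 14 replicate 1. These values do not settle whether the numbers mark a pairing. The replicate block gave 337 allograft, 153 interaction and 0 isograft calls. Of 89 called genes examined, 33 lost the call when at least 1 array was left out. Genes near the filter have values that signal over background limits.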

Other observations

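Antigen-presenting and other myeloid genes outside the groups described above gave single calls that rested on individual arrays. Batf3, a transcription factor of cross-presenting dendritic cells, differed by 0.89 (adjusted p = 0.0391, the only call among 10 dendritic cell genes), and was not called without day 14 replicates 1 to 4 or day 25 replicates 4 or 5 (adjusted p 0.0568 to 0.17), nor with only the compared arrays fitted (adjusted p = 0.362). Mgl2, a lectin of alternatively activated macrophages and dendritic cells, differed by 1.16 (adjusted p = 0.0191), and was not called without day 14 replicates 1, 2 or 5 or day 25 replicates 3 or 5 (adjusted p 0.0521 to 0.0855), nor with only the compared arrays fitted (adjusted p = 0.128). Cxcl12, a chemokine that holds plasma cells in their niche, differed by 0.73 (adjusted p = 0.137), and C1qb, a complement subunit made by macrophages, by 0.22 (adjusted p = 0.813).

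Among matrix and metabolic genes, Tgfbi, a matrix protein induced by TGF-beta, differed by -0.98 (adjusted p = 0.0497) and Adamts4, an aggrecan-cleaving protease, by -1.39 (adjusted p = 0.0391). Slc2a1, the glucose transporter GLUT1, differed by -1.01 (adjusted p = 0.0495). The calls of Tgfbi, Adamts4 and Slc2a1 were each lost without any 1 of day 14 replicates 3, 4 or 5 or day 25 replicates 2 or 4. That of Tgfbi was also lost without day 14 replicate 2 or day 25 replicates 1 or 3, that of Adamts4 without day 25 replicate 1, and that of Slc2a1 without day 25 replicates 3 or 5. The adjusted p in these fits ran from 0.0623 to 0.182. With only the compared arrays fitted it was 0.0882 for Tgfbi and 0.0627 for Slc2a1. The other tested Tgfbi probe sets differed by -0.82, -1.02 and -1.09 (adjusted p = 0.0225, 0.0356 and 0.0537). The other Slc2a1 probe sets differed by -0.89 and -0.76 and were not called (adjusted p = 0.133 and 0.227). No gene was called among 3 mast cell, 7 lymphoid chemokine and cytokine, 21 lysosome, 2 skin, 3 sex-linked and 12 scaling reference genes tested, and no thyroid gene passed the filter.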
